A study of Mus musculus with 12 samples.

Results

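Recombined, SmoM2-positive mammary epithelial cells were compared with wild type mammary epithelial cells over the loci expressed in the series, with gene families and cell functions as the units of description. The comparison uses 8 of the 12 libraries of the series, 4 per group. The recombined libraries came from green cells of genotype mT-mG/SmoM2;MMTV-Cre, and the wild type libraries from cells of genotype mT-mG/SmoM2;+, which carry both alleles and no Cre and keep the red colour of the mT-mG reporter. The cells were primary cells, sorted by fluorescence from adult females aged 9 weeks of mixed Swiss Webster, C57BL/6 and 129X1/SvJ background, and total RNA was sequenced. The 4 unrecombined libraries, from red cells of the Cre genotype, share the estimate of the spread and are not compared here. Of 36635 entries in the count table, 20114 name 1 locus, and 14039 of these had enough counts to be tested.

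Smoothened (Smo) is the membrane protein that passes the Hedgehog signal into the cell once Patched no longer restrains it, and SmoM2 is a mutant form that signals without the ligand. In the mammary gland, Hedgehog signalling is known for its part in the exchange between epithelium and stroma during development. The epithelium has an inner luminal layer and an outer basal layer, whose contractile myoepithelial cells rest on the basement membrane and squeeze milk out of the gland. The MMTV promoter that drives Cre is active mainly in epithelial cells, in the salivary gland as well as in the mammary gland. Every green library carries SmoM2, so SmoM2, Cre, colour and the mix of cells that switched colour cannot be told apart. In bulk samples, fewer cells of a type and less RNA per cell cannot be told apart either. The labels do not say which animals each library came from, so p-values measure the spread between these libraries, which may be technical.

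Levels are given as CPM, counts relative to the scaled size of the library, for wild type libraries 1 to 4 and then recombined libraries 1 to 4. Smo, counted together with AK053708 (chromosome 6, 29685496; such positions are the starts of entries in mm9, the build of the count table), had 35.2, 18.7, 31.2 and 28.2 CPM in wild type and 49.1, 51.9, 56.9 and 74.7 CPM in recombined libraries. The groups did not overlap, and the log2 fold change was 1.04 ± 0.217 (SE), with an adjusted p of 0.0115. Smo no longer passed with recombined 3 and 4 left out (adjusted p = 0.137). Ptch1, which encodes the Patched receptor and is itself a target of the pathway (chromosome 13, 63609643), had 38.1, 36.9, 34.5 and 35.9 CPM in wild type and 133, 459, 337 and 809 CPM in recombined libraries. The lowest of the recombined libraries in Ptch1 was library 1, and it too lay above the wild type range.

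Total counts of the 8 libraries lay between 19581993 and 32607730. Recombined libraries 3 and 4 stood apart from the rest along principal component 1 (31.4% of the variance), and fewer loci were detected in them (14256 and 14601, against 15289 to 16814 in the other 6). The numbers in the library names fall into a series starting with 23 (recombined 1 and 2, wild type 1, 2 and 3) and a series starting with 24 (recombined 3 and 4, wild type 4), and the labels do not say what these numbers mean. Transcripts of salivary gland secretory proteins took 12970 CPM in recombined 2, 18990 CPM in wild type 2 and 595.9 CPM in recombined 1, and under 100 CPM in the other 5. Their part in the results was not tested beyond the alternatives given in the closing section.

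Recombined and wild type cells differed in 920 loci at an adjusted p under 0.05, or 6.55% of those tested. Of these, 586 rose in recombined cells (4.17%) and 334 fell (2.38%). The rises had a median log2 fold change of 1.64, and 40 of them were over 16-fold in the fit. The falls had a median of -2.09 and included 84 over 16-fold in the fit. A fitted fold is no bound where a group is at or near 0. With each locus that had at most 3 counts in every library of its lower group (11 rises and 39 falls) set at its lower bound, against a floor of 3 counts per library, 37 rises and 56 falls were over 16-fold and the medians were 1.64 and -2.05. The loci that rose took between 3.13% and 3.83% of the scaled counts of wild type libraries, and 5.89%, 7.05%, 9.12% and 9.95% of recombined libraries 1 to 4. The loci that fell took between 2.84% and 4.57% in wild type and between 1.05% and 1.54% in recombined libraries. Both sets of loci were picked by the test on these same libraries, so only the sizes of these shares are informative, not their direction. All 4 recombined values exceeded all 4 wild type values in 516 of the loci that rose and were below them in 300 of those that fell, and such separation was seen in 6.33% (above) and 5.91% (below) of all loci tested.

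The number of calls rested on particular libraries. Without recombined 3 and 4 there were 128 rises and 120 falls, and within the library number series 23 alone (2 recombined against 3 wild type libraries) 27 rises and 48 falls. Without recombined 1 there were 762 rises and 455 falls. Without wild type 2, 3 or 4 the calls numbered 612, 600 and 502. Of 150 loci named below, 133 passed the test, 126 of these passed with each library left out in turn, 77 passed without recombined 3 and 4, and 32 passed within series 23.

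**Figure D1:**
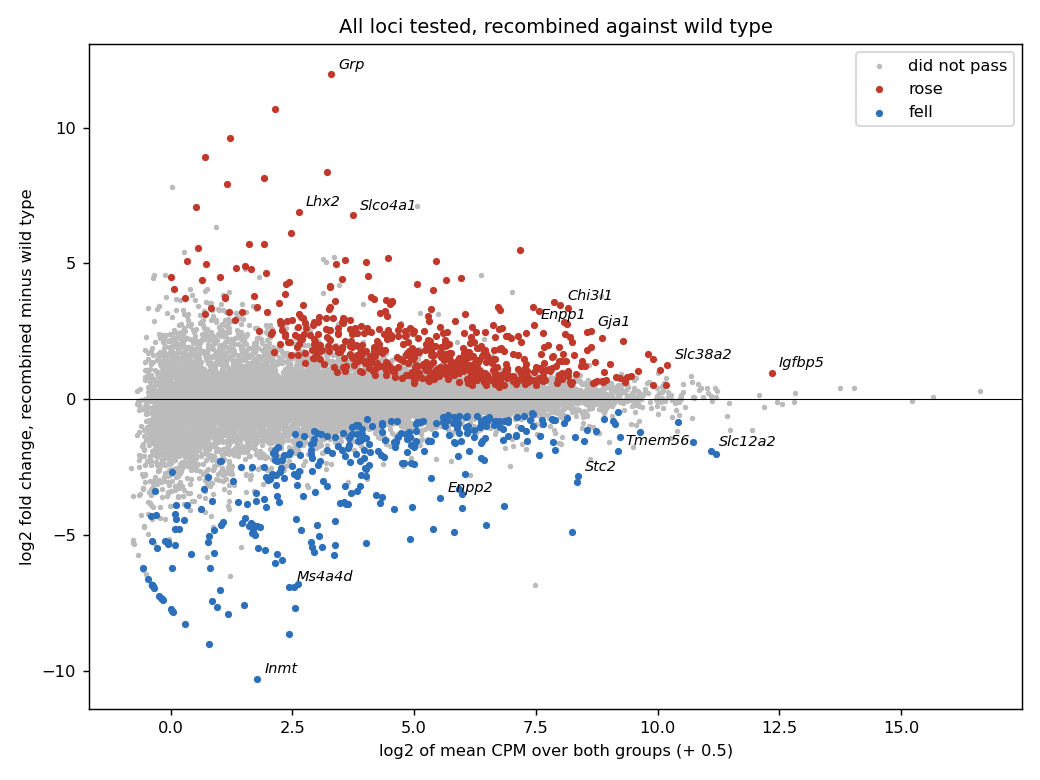
Each point is 1 of the 14039 loci tested, with the log2 of its mean CPM over both groups on the x axis and its log2 fold change on the y axis. The 586 loci that rose are red and the 334 that fell are blue. Fitted falls over 16-fold number 84 and fitted rises of that size 40, or 56 and 37 with loci near 0 counts in a group at their lower bound. The labelled loci Grp and Inmt have no count in 1 of the groups, so their fitted fold is not a bound.

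The families of the general machinery of the cell held no call. None of 95 cytosolic ribosomal protein loci, 76 mitochondrial ribosomal protein loci, 48 proteasome loci, 80 nuclear loci of the respiratory chain or 57 translation initiation factor loci passed with edgeR, beside 6.55% of all loci. At an unadjusted p under 0.05, 2, 2, 1, 2 and 3 of these were higher and 2, 4, 3, 9 and 1 lower in recombined cells. The Wald test of DESeq2 called 0, 1, 0, 0 and 1 higher and 1, 2, 1, 2 and 0 lower. In the same order, the median log2 differences were -0.062, -0.195, -0.117, -0.253 and 0.015, beside -0.019 over all loci. Whether called or not, 40, 22, 11, 16 and 30 of the loci were higher, beside 48.5% of all loci. The 38 kinesins, the motors that walk along microtubules, held no call either, with 8 higher and 3 lower at an unadjusted p under 0.05, and 2 higher and 2 lower with DESeq2. Of 88 families, 86 had at least 10 tested loci, and 15 of these had no call while 54 had a share of calls above 6.55%. The highest shares among these were those of laminins, collagens, ephrins and Eph receptors, cathepsins (mainly lysosomal proteases), and the lysyl oxidases with other collagen-modifying enzymes.

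**Figure D2:**
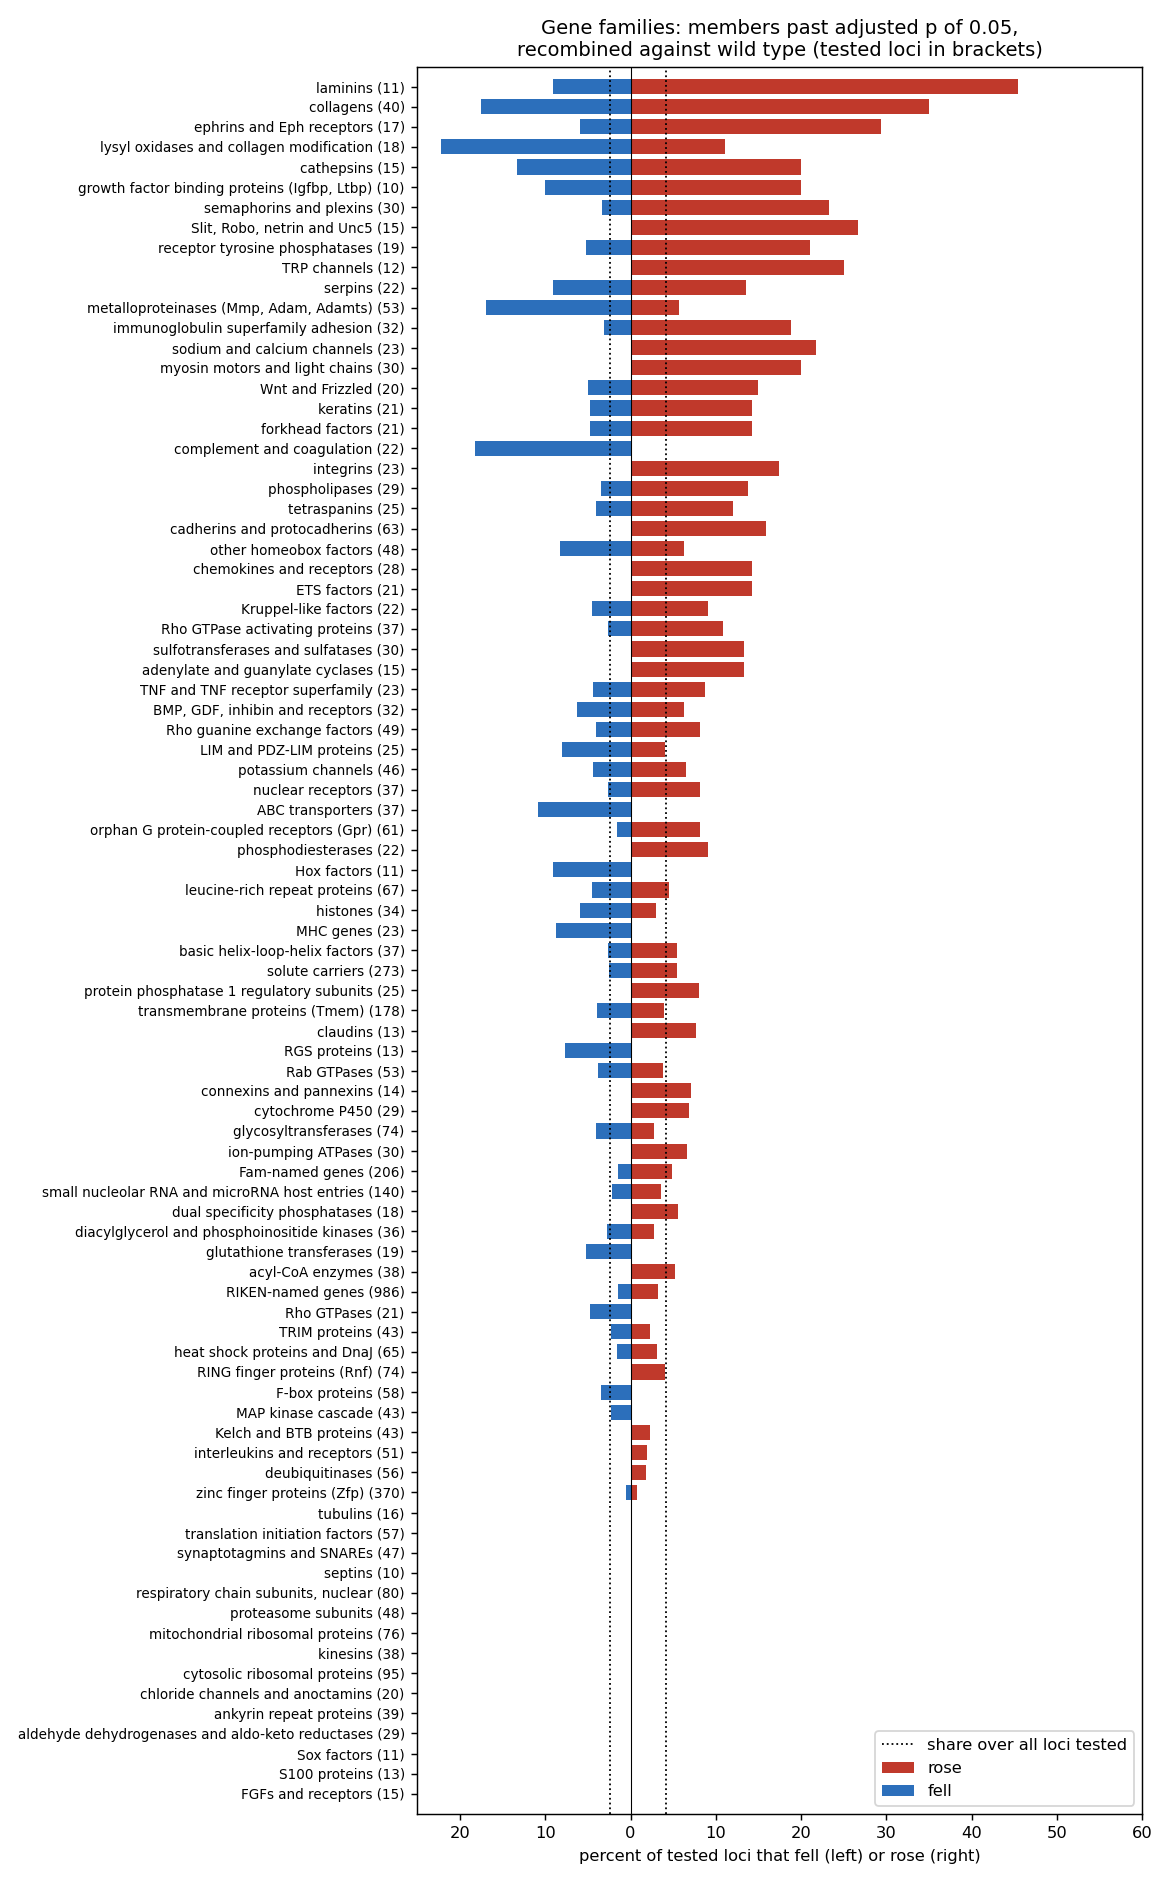
Bars give the percent of tested loci of each family that rose (red, right) or fell (blue, left) in recombined cells, for the 86 families with at least 10 tested loci, whose number stands in brackets. Dotted lines mark the shares over all loci, 4.17% up and 2.38% down. Laminins and collagens stand at one end and the ribosomal, proteasome and respiratory chain families, with no bar, at the other.

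The changes that were large against the spread of the libraries included surface and signalling proteins. Enpp1, an ectoenzyme that makes pyrophosphate outside the cell (chromosome 10, 24361216), had 65.9, 33.2, 43.6 and 40.4 CPM in wild type and 189, 345, 325 and 359 CPM in recombined libraries. No recombined library was near the wild type range, and the log2 fold change was 2.73 ± 0.252 (adjusted p = 7.23e-05). Gja1, which encodes the gap junction protein connexin 43 (chromosome 10, 56097078), had 131, 100.2, 135 and 107 CPM against 373, 615, 934 and 753 CPM, a log2 fold change of 2.50 ± 0.252. Recombined 1 was again the lowest of its group and still above the highest wild type library. Dll1, a ligand of the Notch receptors (chromosome 17, 15504317), had 8.62, 12.3, 10.3 and 6.13 CPM against 53, 74.6, 84.6 and 62.3 CPM, a log2 fold change of 2.88 ± 0.298. The 3 genes also passed within the library number series 23. Chi3l1, a secreted chitinase-like glycoprotein, rose from 20.1–58.2 CPM to 301–852 CPM.

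Rises that were large in absolute level included transcripts that wild type cells already held in quantity. Slc38a2, a sodium-coupled transporter of neutral amino acids (chromosome 15, 96517822), had 561, 807, 721 and 675 CPM in wild type and 1310, 1468, 2438 and 1423 CPM in recombined libraries. Recombined 3 was far above the other 3, which lay close together and above the wild type range. The log2 fold change was 1.26 ± 0.215. Zfp36l1, a protein that binds AU-rich messages and speeds their decay, rose from 689 ± 79.5 CPM (SD, n = 4) to 1431 ± 151 CPM, by 1.05 ± 0.149. Igfbp5, a secreted binding protein of insulin-like growth factors, rose from 2689–4064 CPM to 5583–8084 CPM, by 0.98 ± 0.234 (adjusted p = 0.0232). It no longer passed when recombined 3 or wild type 1, 3 or 4 was left out (adjusted p up to 0.0665).

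Among the falls, Enpp2, which encodes autotaxin, the secreted enzyme that makes lysophosphatidic acid (chromosome 15, 54670452), had 54.2, 125, 99 and 62.7 CPM in wild type and 5.11, 9.2, 5.01 and 8.16 CPM in recombined libraries. The 4 recombined libraries lay within 5.01 to 9.2 CPM, far below the lowest wild type library. The log2 fold change was -3.63 ± 0.309 (adjusted p = 4.48e-05), so the levels of the related ectoenzymes Enpp1 and Enpp2 moved in opposite directions in these bulk libraries. Serping1, the inhibitor of the first complement component, fell from 40.9–101 CPM to 7.4–11.4 CPM. Svep1, a large secreted adhesion protein, fell from 19.5–28.7 CPM to 1.49–3.28 CPM, and the membrane protein gene Ms4a4d from 6.4–11.9 CPM to at most 0.183 CPM. The fibroblast marker list moved in the same direction as these genes, and its part in them was not tested. Its summed level was 1554 to 3659 CPM in wild type and 247.4 to 606.4 CPM in recombined libraries.

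Falls that were large in absolute level included Tmem56, Stc2 and Slc12a2. Tmem56, which encodes a transmembrane protein (chromosome 3, 120904678), had 459, 1146, 813 and 1269 CPM in wild type and 318, 286, 134 and 253 CPM in recombined libraries, a log2 fold change of -1.90 ± 0.322. Stc2, a secreted glycoprotein hormone of the stanniocalcin family (chromosome 11, 31259440), had 246, 913, 315 and 843 CPM against 122, 78.8, 23.9 and 96.3 CPM. The wild type libraries were unequal in Stc2, with 1 and 3 well below 2 and 4, and the groups did not overlap. Both missed the threshold without recombined 3 and 4 (adjusted p = 0.057 for Tmem56 and 0.0602 for Stc2). Slc12a2, the sodium, potassium and chloride cotransporter of secretory epithelia, fell by 1.91 ± 0.416 on the log2 scale, from 1276–4665 CPM to 599.9–1470 CPM. Wild type 1 lay among the recombined libraries in Slc12a2, and the call was lost without recombined 3 or 4 (adjusted p up to 0.0563). The summed level of the luminal hormone-sensing marker list, between 4102 and 10090 CPM in wild type and between 1168 and 3918 CPM in recombined libraries, moved in the same direction as these 3 genes, and its part in them was not tested.

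**Figure D3:**
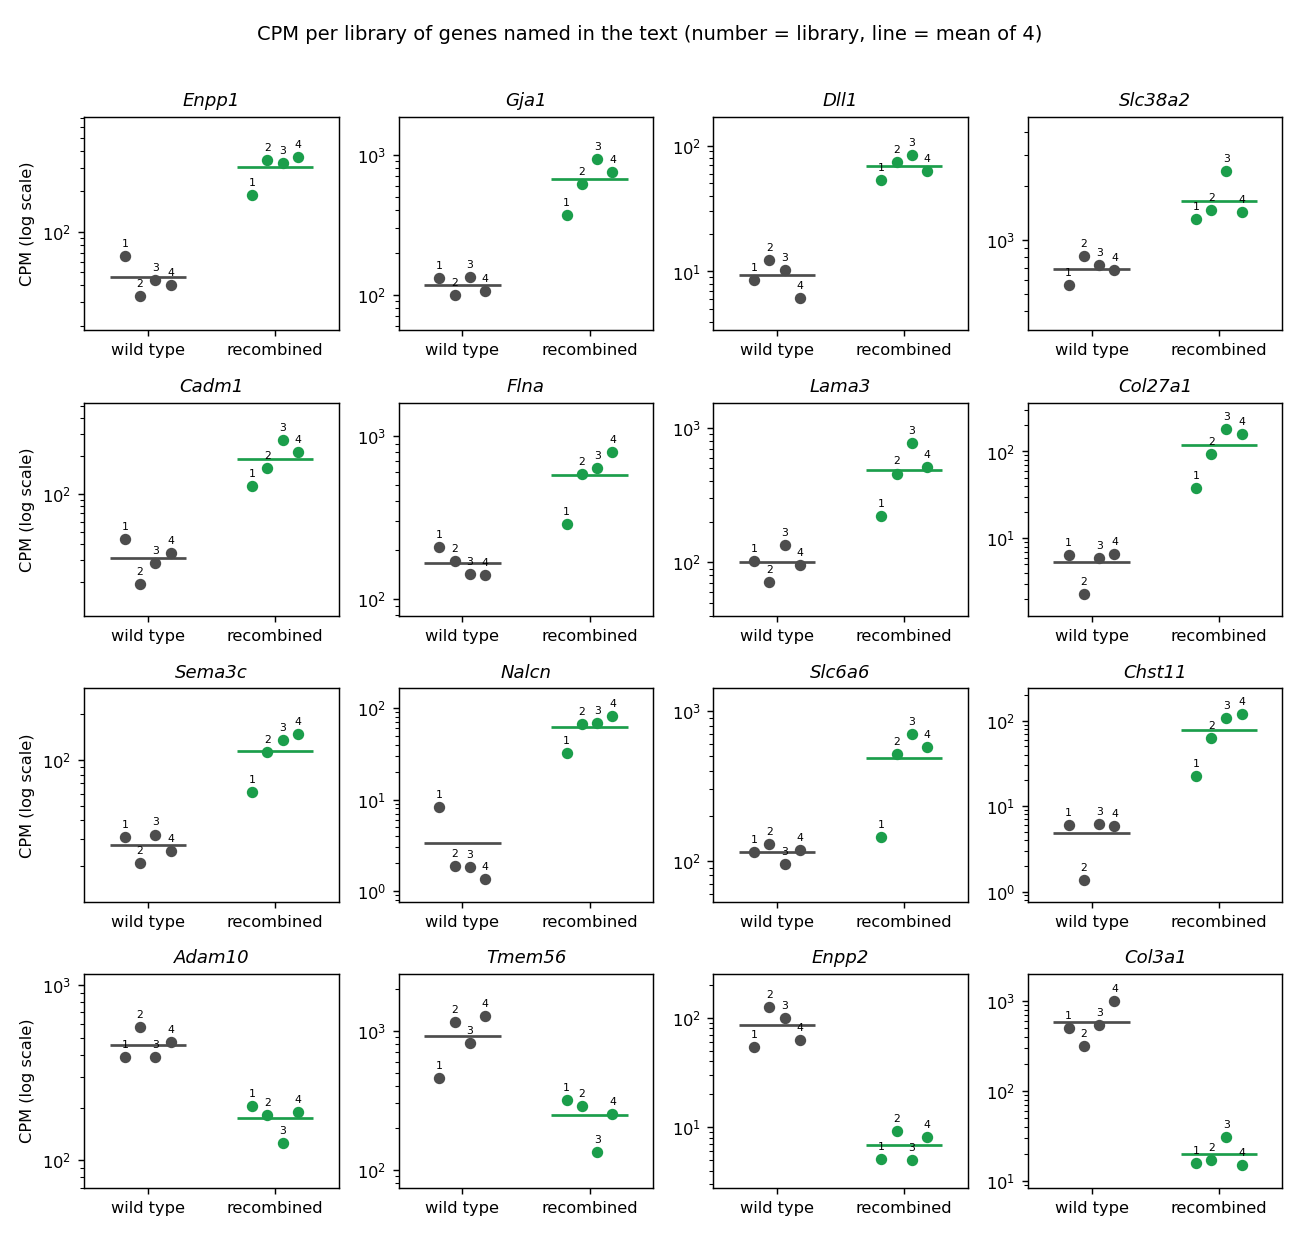
CPM on a log scale for 16 genes named in the text, with wild type libraries in grey on the left and recombined libraries in green on the right of each panel. The number beside a point is the library and the line is the mean of 4. In all 16 panels the groups do not overlap, and in several of the genes that rose recombined 1 is the lowest of its group.

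Contractile genes were among the most often raised. Of 28 tested loci of the contractile machinery, the actin and myosin apparatus of smooth muscle and myoepithelial cells, 14 rose, none fell and 14 did not pass, beside 4.17% rises over all loci. The median log2 fold change was 1.45, beside -0.02 over all loci. Filamin A (Flna), which crosslinks actin filaments (chromosome X, 71468799), had 209, 170.1, 143 and 141 CPM in wild type and 289.7, 583, 637 and 805 CPM in recombined libraries, a log2 fold change of 1.80 ± 0.253. Recombined 1 was closest to the wild type range and did not reach it. The smooth muscle myosin heavy chain (Myh11, counted with mKIAA0866) rose from 199–250.2 CPM to 457–1582 CPM, and tropomyosin 2 (Tpm2), which lies along actin filaments, from 104–146 CPM to 202–1159 CPM. Caldesmon (Cald1), which binds actin and restrains myosin, rose from 340.3–502 CPM to 531–2145 CPM, and smoothelin (Smtn) from 15.6–19.8 CPM to 28.2–109.7 CPM. Ppp1r14c, an inhibitor of the phosphatase that acts on myosin, has 2 entries in the table: the one on chromosome 10 (6881565) rose from 0.503–2.14 CPM to 8.66–49.5 CPM, and the one on chromosome 2 (130627701) did not pass (log2 -0.08 ± 0.478).

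Other actin-associated genes of the list did not pass. Vinculin (Vcl), which links actin to adhesion sites, had a log2 difference of 0.23 ± 0.183 and Tpm4 of 0.16 ± 0.283, and neither passed. Tpm1 missed the threshold at 0.95 ± 0.275 (adjusted p = 0.0557). The contractile count was 4 rises without recombined 3 and 4, and between 11 and 18 with each library left out in turn. Medians over the 28 members relative to the wild type mean were 0.23 in recombined 1 and 1.5, 1.23 and 1.98 in recombined 2, 3 and 4. The basal and myoepithelial marker list shares members with the contractile list, Myh11 among them, so the lists are not independent. It followed the same order at its low end, with 0.65 in recombined 1 and between 1.84 and 2.60 in the other 3. Its summed level was 2787 to 3995 CPM in wild type and 4319 to 12840 CPM in recombined libraries. Of its 19 tested loci 13 rose (68.4%, beside 4.17% of all loci), and 3 rose without recombined 3 and 4. The part of this list in the contractile, junction and laminin results was not tested.

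Serum response factor binds a CArG box (CC, then 6 bases of A or T, then GG) before many contractile genes, so the promoters of this list were searched for it. RefSeq promoters of build GRCm38.p6, from 250 bases before to 50 after the start, matched 24 of the 28 entries and 23 genes. A box stood in 3 of the 23 (13%) and in 488 of the 27025 genes with a promoter in the reference (1.81%), with both strands covered since the box reads alike on each. The windows below are 50 bases of the + strand, 5′ to 3′, with the box in capitals; the box begins 161 (Myl9), 56 (Cnn2) and 227 (Vcl) bases before the gene start. They lie at chr2:156775283-156775332 (Myl9), chr10:79988524-79988573 (Cnn2) and chr14:20929151-20929200 (Vcl) of GRCm38.p6, a later build than the mm9 of the count table.
Myl9: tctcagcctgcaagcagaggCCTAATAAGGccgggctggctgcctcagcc
Cnn2: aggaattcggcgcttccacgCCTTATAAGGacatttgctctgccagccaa
Vcl: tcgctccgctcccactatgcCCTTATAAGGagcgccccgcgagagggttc
Myl9, a regulatory myosin light chain chosen after its values were seen, had 49.1, 28.6, 40.4 and 57.2 CPM in wild type and 72.1, 259, 156 and 344 CPM in recombined libraries, and rose by 2.24 ± 0.466 (adjusted p = 0.0118, or 0.135 without recombined 3 and 4). Cnn2, the actin-binding calponin 2 and likewise chosen afterwards, differed by 1.5 ± 0.437 and missed the threshold (adjusted p = 0.0563). Of the 3 genes with a box in this window, 1 thus passed, and the other matched contractile genes that rose hold no such box in this window.

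Desmosomes and hemidesmosomes, which anchor keratin filaments to neighbouring cells and to the basement membrane, held 9 rises and no fall among 19 tested loci (median log2 0.75). Their share of rises was 47.4%, beside 4.17% of all loci. Col17a1, the transmembrane collagen of the hemidesmosome, rose from 31.2–44.8 CPM to 83.6–262 CPM, and Perp, a desmosomal membrane protein, from 81.2–91.3 CPM to 151–457 CPM. Among the plakophilins, which tie the desmosome to its plaque, Pkp1 rose by 1.92 ± 0.39 and Pkp4 by 1.03 ± 0.205. The desmosomal cadherin Dsg1a had no count in any wild type library and 2.06, 7.22, 4.2 and 17.6 CPM in recombined libraries, at least 68.1-fold higher as a mean, set against a floor of 3 counts per library (39.4-fold without recombined 4). The entry of the integrin Itgb4, a hemidesmosome receptor whose reads are joined with those of Galk1 and AK140292, rose by 1.43 ± 0.311, with recombined 1 inside the wild type range. Without recombined 3 and 4 none of the 19 passed, and the count was between 6 and 10 with each library left out in turn.

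Of 26 tight junction and polarity genes, which seal the apical side of the epithelium, 2 rose and none fell, 7.69% beside 6.55% of all loci. The count depended on the libraries and the tool: without recombined 1 there were 1 rise and 7 falls, without recombined 3 and 4 none passed, and DESeq2 gave 2 rises and 2 falls. Claudin 1 (Cldn1) was the larger rise, from 85.2–144 CPM to 275–431 CPM. E-cadherin (Cdh1, counted with AK041755), the main adhesion protein between epithelial cells, had 1383 ± 364 CPM in wild type and 1322 ± 296 CPM in recombined libraries and did not pass (log2 -0.07 ± 0.236). Of the 63 cadherins and protocadherins 10 rose and none fell (15.9% rose, beside 4.17% of all loci). P-cadherin (Cdh3) rose from 7.74–15.7 CPM to 32.3–101 CPM, and Pcdh18 by 1.74 ± 0.324. This count fell to 3 without wild type 2 or without wild type 4, and to 2 without recombined 3 and 4, and without recombined 1 it was 12 rises and 2 falls.

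Adhesion proteins of the immunoglobulin superfamily, which hold cells together without cadherins, gave 6 rises and 1 fall among 32 loci (7 and 2 without recombined 1). The share called was 21.9%, beside 6.55% of all loci. Nectin 1 (Pvrl1; chromosome 9, 43552658) had 96.9, 68.7, 99.5 and 71.5 CPM in wild type and 223, 293, 314 and 458 CPM in recombined libraries, a log2 fold change of 1.94 ± 0.222 (adjusted p = 0.000246). Cadm1, another cell adhesion molecule (chromosome 9, 47338434), had 43.9, 19.2, 28.2 and 33.6 CPM against 117, 161, 267 and 215 CPM, a log2 fold change of 2.60 ± 0.288. In both genes the groups were far apart, and both also passed within series 23. Nectin 3 (Pvrl3) rose by 1.46 ± 0.275 and Igsf3 by 1.16 ± 0.21. The fall was Jam3, a junctional adhesion molecule, from 2.09–3.01 CPM to 0.269–0.657 CPM.

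Laminins are trimers of an alpha, a beta and a gamma chain and form the first sheet of the basement membrane. Of 11 tested chains 5 rose, 1 fell and 5 did not pass, so 54.5% were called, beside 6.55% of all loci. Lama3 (chromosome 18, 12492532) had 103, 71.6, 135 and 95.1 CPM in wild type and 221, 458, 771 and 508 CPM in recombined libraries, a log2 fold change of 2.28 ± 0.317. Lamb3, a beta chain (counted with AK005414), rose by 2.31 ± 0.263. Lama1 rose from 7.7–32.1 CPM to 99.5–319 CPM and Lamc3 from 1.06–1.7 CPM to 3.43–10.3 CPM. Lama2, the alpha chain of laminins of muscle and stroma, fell from 62.7–145 CPM to 0.717–10.1 CPM. The chains Lamc1 (log2 0.68 ± 0.21), Lamb1 (0.87 ± 0.27), Lama5 (-0.10 ± 0.28) and Lamb2 (0.12 ± 0.211) did not pass. Without recombined 3 and 4 there were 4 rises and 1 fall.

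The 40 tested collagens moved in both directions, with 14 rises and 7 falls (35% and 17.5%, beside 4.17% and 2.38% of all loci). Col27a1, a minor fibrillar collagen (counted with mKIAA1870; chromosome 4, 62876445), had 6.47, 2.28, 5.98 and 6.6 CPM in wild type and 38, 93.8, 183 and 161 CPM in recombined libraries, a log2 fold change of 4.48 ± 0.465. Wild type 2 was the lowest library and recombined 3 the highest. Col7a1, the anchoring fibril collagen (counted with Mir711), rose from 6.74–13.5 CPM to 16.8–77.9 CPM, Col16a1 from 5.54–15.5 CPM to 30.6–81.4 CPM and Col9a2 from 2.13–6.58 CPM to 15.6–40.1 CPM. The entry that joins Col9a3 with Tcfl5 rose by 2.43 ± 0.296. The basement membrane collagens Col4a1 and Col4a2, chosen after their values were seen, rose by 1.49 ± 0.34 and 1.67 ± 0.348. In Col4a1 recombined 1 lay inside the wild type range, and leaving out recombined 4 or wild type 2, 3 or 4 ended the call (adjusted p up to 0.0613).

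The falls included fibrillar and other interstitial collagens. Col3a1 (chromosome 1, 45368382) had 502, 313, 542 and 989 CPM in wild type and 16, 17.2, 30.9 and 15.1 CPM in recombined libraries, a log2 fold change of -4.89 ± 0.374 (adjusted p = 3.48e-05). Col1a1 fell from 94–291 CPM to 4.14–12.2 CPM, Col1a2 from 319.7–919 CPM to 24.9–105 CPM and Col5a3 from 4.23–6.27 CPM to at most 0.329 CPM. Col6a2, a beaded filament collagen, fell from 21.9–35.8 CPM to 5.32–8.78 CPM. The fibroblast marker list, whose summed level was 1554 to 3659 CPM in wild type and 247.4 to 606.4 CPM in recombined libraries, moved in the same direction. Of its 14 tested loci 13 fell (92.9%, beside 2.38% of all loci), and 11 fell without recombined 3 and 4. Tcf21 was at 0 in the recombined libraries. The list itself holds Col1a1, Col1a2 and Col3a1, so its direction is in part that of these collagens. Its part in these falls, and in those of Enpp2, Serping1, Svep1, Ms4a4d and Lama2 above, was not tested. Nor was its part tested in the falls of matrix enzymes, guidance receptors, ABC transporters, transcription factors and transcripts found in a single group, described below. Without recombined 3 and 4 the collagen calls were 3 rises and 8 falls.

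**Figure D4:**
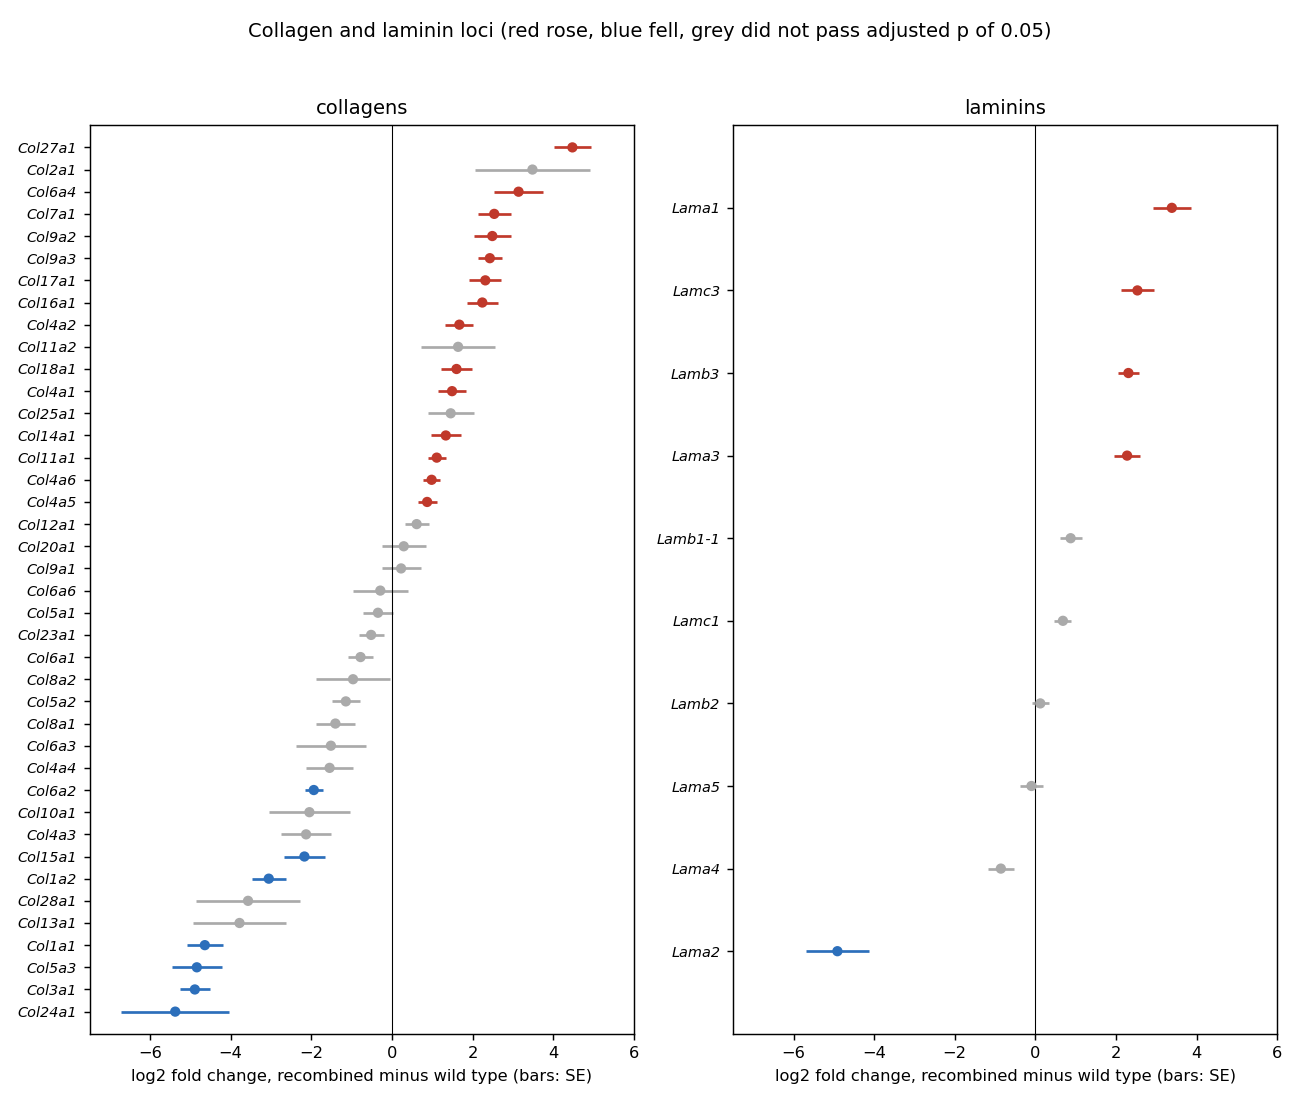
Log2 fold change of the 40 collagen loci (left) and 10 of the 11 tested laminin loci (right), with bars of 1 SE on each side. Red loci rose, blue loci fell and grey loci did not pass. Collagens spread from Col3a1 and its neighbours below -4 to Col27a1 above 4, and Lama2 is the 1 laminin on the lower side that passed.

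Enzymes that act on the matrix moved in both directions. Among 18 lysyl oxidases and other collagen-modifying enzymes 2 rose and 4 fell (33.3% called, beside 6.55% of all loci). The median log2 difference was 0.29, and 10 of the 18 were higher. No member rose without recombined 3 or 4 or wild type 2, 3 or 4, whereas 6 rose and 3 fell without recombined 1, 5 and 3 without the libraries with salivary transcripts, and 4 and 4 with DESeq2. Loxl2, which crosslinks collagen (chromosome 14, 70008935), had 13, 11.8, 17.2 and 16.9 CPM in wild type and 1.94, 2.9, 0.969 and 1.32 CPM in recombined libraries, a log2 fold change of -3.03 ± 0.333. The groups were well apart, and Loxl2 also passed within series 23. Lox (counted with AK084265) fell from 6.15–32.1 CPM to 0.536–3.19 CPM, and Loxl1 from 0.542–4.41 CPM to 1, 2, 0 and 0 counts in recombined 1 to 4. Of 53 metalloproteinases 3 rose and 9 fell. The share of rises, 5.66%, was near the 4.17% of all loci, and that of falls was 17%, beside 2.38%. Adam10, the membrane protease that sheds Notch ligands and receptors (chromosome 9, 70526807), had 387, 573, 388 and 471 CPM in wild type and 205, 181, 126 and 188 CPM in recombined libraries, a log2 fold change of -1.38 ± 0.181. Recombined 3 was the lowest, and the highest recombined library lay below the lowest wild type library. Mmp3, a stromelysin, fell from 10.1–27.1 CPM to 0.162–2.35 CPM, and Adamts12 from 29.2–41.1 CPM to 5.17–10.5 CPM. The rises included Adamts17 (1.79 ± 0.288) and Adamts1, from 215–627 CPM to 887–1828 CPM, whose call was lost without recombined 3 (adjusted p = 0.0552). Integrins, the receptors for these matrices, held 4 rises among 23 loci (17.4%, beside 4.17% of all loci), with Itgb8 up by 1.28 ± 0.224. The integrin rises numbered 2 without recombined 3 or 4 or wild type 1, 3 or 4. The abundant Itgb1 and Itga6 did not pass (0.35 ± 0.154 and 0.41 ± 0.15).

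Axon guidance families, which also steer epithelial growth and vessel growth, rose in part. Semaphorins and their plexin and neuropilin receptors had 7 rises and 1 fall among 30 loci (26.7% called, beside 6.55% of all loci). The entry of the ligand Sema5a, joined with Snord123 and AK007719 (chromosome 15, 32170322), had 34.4, 48.8, 57 and 53 CPM in wild type and 133, 269.6, 338 and 316 CPM in recombined libraries, a log2 fold change of 2.45 ± 0.272. The recombined libraries stood far above wild type. The secreted ligand Sema3c rose from 20.7–32.2 CPM to 61.3–148 CPM, and the membrane ligands Sema6d and Sema6a by 1.80 ± 0.251 and 1.54 ± 0.259. The 2 neuropilins, co-receptors of secreted semaphorins and of VEGF, went opposite ways. Nrp2 (chromosome 1, 62749890) had 20.7, 22.4, 34.3 and 28.6 CPM against 48.6, 119, 125 and 295 CPM, a log2 fold change of 2.47 ± 0.41. The entry of Nrp1, joined with Mir1903 and AK050336 (chromosome 8, 130882972), had 19.1, 19.6, 27.8 and 20.8 CPM against 9.59, 4.11, 2.53 and 5.11 CPM, a log2 fold change of -2.03 ± 0.404. Neither pair of groups overlapped. The receptor Plxna1 rose by 1.37 ± 0.264. Without recombined 3 and 4 there were 5 rises and no fall.

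Of 17 ephrins and Eph receptors 5 rose and 1 fell (35.3% called, beside 6.55% of all loci). Without recombined 4 or without wild type 2, 3 of them rose. The receptor Epha7 had 30.9, 24.7, 24.1 and 22.4 CPM in wild type and 63, 93.7, 91.7 and 79.9 CPM in recombined libraries, a log2 fold change of 1.69 ± 0.185, with little spread in either group. The ligand Efnb2 rose by 1.62 ± 0.29 and the receptor Ephb1 from 1.65–4.63 CPM to 10.3–33.6 CPM, while the receptor Epha3 fell from 3.95–5.14 CPM to 0–0.513 CPM. Without recombined 3 or without recombined 4, 2 of the 15 loci of the Slit, Robo, netrin and Unc5 families rose. In the main fit 4 rose (26.7%, beside 4.17% of all loci). They included Ntng2 (counted with mKIAA1857), a membrane-anchored netrin relative, up from 0.348–1.44 CPM to 3.32–15.9 CPM, and the netrin receptor Dcc. Dcc had no count in wild type and 1.37, 1.28, 10.1 and 1.94 CPM in recombined libraries, at least 32.1-fold higher against the floor (13.4-fold without recombined 3, which was far above the rest).

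Genes better known from neurons were among those that rose. In the list of synapse and neuronal membrane genes, 9 of 36 rose and 2 fell (30.6% called, beside 6.55% of all loci). Without recombined 3 and 4, 5 rose and 1 fell. Sorcs2, a sorting receptor for neurotrophins (chromosome 5, 36359829), had 3.34, 1.97, 3.36 and 5.09 CPM in wild type and 19, 32.2, 61.4 and 55.2 CPM in recombined libraries, a log2 fold change of 3.60 ± 0.405. Its groups did not overlap, and recombined 1 was the lowest of its group. Nrcam, a neuronal adhesion molecule, rose from 0.524–1.97 CPM to 10.5–89.7 CPM, and Kirrel3, a synaptic adhesion molecule, from 3.41–4.93 CPM to 16.5–35.3 CPM. Grik4, a kainate receptor subunit chosen after its values were seen, had no count in wild type and 0.388–5.52 CPM in recombined libraries, at least 19.9-fold higher against the floor (10.4-fold without recombined 4). The AMPA receptor subunit Gria1 went the other way: it had 2.28, 1.7, 3.45 and 2.33 CPM in wild type and no count in recombined libraries, at least 20.1-fold lower.

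Neurotrophins, neuregulins and their receptors had 5 rises and 2 falls among 15 loci (46.7% called, beside 6.55% of all loci). There were 2 and 2 without recombined 3 and 4, and 2 rises without wild type 4. The neurotrophin receptor Ntrk3 rose from 2.28–5.85 CPM to 12–29.1 CPM and the growth factor Nrg1 (counted with AK052414), a ligand of the Erbb receptors, from 10.5–24.7 CPM to 40.2–92.3 CPM. Bdnf, a neurotrophin, rose by 1.76 ± 0.386, a call lost without wild type 3 or 4 (adjusted p up to 0.058). Sortilin (Sort1), the sorting receptor related to Sorcs2, fell from 109.9–158 CPM to 61.8–75.9 CPM. A list of Schwann cell and nerve markers held 1 rise among 11 tested loci (9.09%, beside 4.17% of all loci). Its summed levels were 118.9 to 168.3 CPM in wild type and 130.7 to 211.1 CPM in recombined libraries.

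Cation channels of excitable cells rose as a minority of each family. Of 23 sodium and calcium channel loci 5 rose and none fell (21.7% rose, beside 4.17% of all loci). The count was 5 in each of the fits that leave out 1 library and 2 without recombined 3 and 4. Nalcn, the sodium leak channel that sets resting conductance (chromosome 14, 123675862), had 8.28, 1.9, 1.83 and 1.36 CPM in wild type and 32, 67.8, 69.2 and 82.2 CPM in recombined libraries, a log2 fold change of 4.22 ± 0.62. Wild type 1 stood above the other wild type libraries and well below recombined 1. The calcium channel subunit Cacna2d1 rose from 22.6–42.6 CPM to 52.9–119 CPM and the sodium channel Scn7a from 90.03–211 CPM to 227–564 CPM. Cacnb4 (counted with AK079699) rose by 2.15 ± 0.428, as did the entry that joins Cacna1d with Chdh, by 1.44 ± 0.315. TRP channels had 3 rises among 12 (25%, with a median log2 of -0.06 over the 12), and 1 without wild type 4. Trpm3 rose by 2.43 ± 0.483. Potassium channels had 3 rises and 2 falls among 46 loci (6.52% and 4.35%, beside 4.17% and 2.38% of all loci). The count of rises was 0 without wild type 4, and 4 loci fell without recombined 1. The falls were Kcnn3 (counted with SK3), from 2.1–9.68 CPM to at most 0.77 CPM, and Kcnt2, from 1.76–6.15 CPM to at most 0.215 CPM. Both calls were lost without recombined 3 and 4 (adjusted p = 0.129 for Kcnn3 and 0.0673 for Kcnt2) and with limma-voom with library weights.

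Solute carriers, the largest family described, were called at a share near that of all loci: of 273 loci 15 rose and 7 fell, or 8.06% beside 6.55%. The rises numbered 9 and the falls 4 without recombined 3, and likewise without wild type 4. Single members moved strongly. Slco4a1, an organic anion transporter (chromosome 2, 180191038), had 0.511, 0.0387, 0.0436 and 0.287 CPM in wild type and 5.14, 22.1, 31.3 and 43.5 CPM in recombined libraries. Recombined 1 was again the lowest of its group and well above the highest wild type library. Slc6a6, the taurine transporter (chromosome 6, 91634060), had 115, 129, 95.7 and 118 CPM against 145, 518, 708 and 575 CPM, a log2 fold change of 2.09 ± 0.386 (adjusted p = 0.00558, or 0.119 without recombined 3 and 4). Here recombined 1 was close to wild type, and the other 3 were far above it.

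Amino acid carriers gave rises and a fall. Slc7a5 rose from 12.6–24.8 CPM to 34.5–105 CPM, and its partner chain in the large neutral amino acid exchanger, Slc3a2, by 1.12 ± 0.25, a call lost without wild type 2 (adjusted p = 0.0506). Slc38a1, the close relative of Slc38a2, fell from 95–134 CPM to 26.4–58.7 CPM, while Slc38a2 rose. Slco2b1, a steroid sulfate carrier, fell from 3.27–7.9 CPM to 0.403–1.31 CPM. The mitochondrial phosphate carrier Slc25a3 did not pass (0.08 ± 0.138).

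Metal homeostasis genes had 6 rises and no fall among 25 (24% rose, beside 4.17% of all loci). Slc39a8, an importer of zinc and manganese (counted with AK030918; chromosome 3, 135488454), had 7.56, 4.03, 6.07 and 3.66 CPM in wild type and 15.1, 24.6, 32.5 and 57.1 CPM in recombined libraries, a log2 fold change of 2.60 ± 0.393. Recombined 4 was the highest and no library overlapped the other group. Steap4, a reductase of iron and copper, rose from 94.4–186 CPM to 298–344 CPM, and the transferrin receptor Tfrc by 0.91 ± 0.197, a call lost without wild type 4 (adjusted p = 0.0549). The iron store ferritin heavy chain (Fth1) did not pass (0.24 ± 0.176). The count was 2 without wild type 4 and 3 without recombined 3 and 4. ABC transporters held 4 falls and no rise among 37 loci (10.8% fell, beside 2.38% of all loci). They held 2 falls without wild type 3 or without wild type 4, and 1 rise and 4 falls without recombined 1. Abca8a fell from 51.9–68.5 CPM to 0.538–3.52 CPM and Abca9 from 16.9–31.2 CPM to 1.36–2.58 CPM, and both passed within series 23.

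Enzymes that build or trim heparan and chondroitin sulfate, the sugar chains that hold growth factors at the cell surface, gave 7 rises and 2 falls among 39 loci (median log2 0.73). The share called was 23.1%, beside 6.55% of all loci. Chst11, a chondroitin sulfotransferase (chromosome 10, 82448241), had 6.03, 1.36, 6.24 and 5.91 CPM in wild type and 22.4, 63.3, 109 and 119 CPM in recombined libraries, a log2 fold change of 4.00 ± 0.592. Wild type 2 was the lowest and recombined 4 the highest. Ext1, a subunit of the polymerase of heparan sulfate chains, rose from 101–134 CPM to 178–473 CPM, and the sulfotransferase Hs3st3b1 by 1.75 ± 0.348. The hyaluronan synthase Has1 fell from 17.9–43.1 CPM to 6.69–14.5 CPM. It is counted among the 39 loci and the 2 falls, although hyaluronan is neither heparan nor chondroitin sulfate. The rises numbered 3 without recombined 4, without wild type 4 or without recombined 3 and 4.

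Among receptors, 5 of 61 orphan G protein-coupled receptors rose and 1 fell, or 9.84% called beside 6.55% of all loci. Of these receptors 2 rose without recombined 4 or wild type 1 or 2, and 2 fell without recombined 3. Gpr125, an adhesion receptor, rose from 29–41 CPM to 73.9–248 CPM and Gpr64, another of that class, from 2.44–5.28 CPM to 15.5–44.9 CPM. Receptor tyrosine phosphatases had 4 rises and 1 fall among 19 (26.3% called), with Ptpre (counted with 5830432E09Rik) up by 1.56 ± 0.226 and Ptpru by 2.13 ± 0.391. Of 15 cyclases 2 rose (13.3% called), none without recombined 3 and 4, and 2 with 1 fall without recombined 1. The rises included the adenylate cyclase Adcy7, from 15.1–20.3 CPM to 27.1–107 CPM. The Wnt receptor Fzd1 rose from 27.1–35.4 CPM to 88.6–293 CPM (log2 2.56 ± 0.304, adjusted p = 0.000284) and also passed within series 23.

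Transcription factor families had shares of calls from 0% (Sox) to 60% (3 of 5 T-box factors), beside 6.55% of all loci. Of 48 other homeobox factors, those outside the Hox clusters, 3 rose and 4 fell (14.6% called), 2 fell without wild type 3 or without wild type 4, and 5 rose and 7 fell without recombined 1. Tshz2, a zinc finger homeobox factor (counted with A630075F10Rik; chromosome 2, 169459145), had 39.2, 35.7, 41.3 and 44.7 CPM in wild type and 109, 199, 213 and 284 CPM in recombined libraries, a log2 fold change of 2.32 ± 0.278. Zeb1, a repressor of epithelial genes (chromosome 18, 5591888), had 25.5, 24.7, 30.3 and 28.7 CPM against 5.67, 2.71, 9.58 and 2.6 CPM, a log2 fold change of -2.41 ± 0.391. The groups of both factors were well apart. The entry of Zeb2, joined with Gm13476 and mKIAA0569, fell from 28.5–61.8 CPM to 4.25–14.5 CPM. The LIM homeobox factor Lhx2 was at most 0.305 CPM in wild type and 3.14–25.9 CPM in recombined libraries.

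Bcl11b and Id4 rose among 26 transcription factors of stratified epithelia, of which 3 rose and none fell (11.5% rose, beside 4.17% of all loci). Without recombined 1 there were 5 rises and 2 falls. Bcl11b went from 1.94–6.27 CPM to 18.2–86.2 CPM, and the entry of Id4, an inhibitor of basic helix-loop-helix factors joined with AK039372 and AK034282, from 5.48–12.8 CPM to 24.6–57.2 CPM. The third was Trp63, which rose by 3.25 ± 0.476. Of 5 tested T-box factors 3 fell (60%, beside 2.38% of all loci), among them Tbx15, from 1.16–9.96 CPM to at most 0.567 CPM. Only 1 T-box factor fell without recombined 2 or wild type 3 or 4. Of 21 ETS factors 3 rose (14.3%, beside 4.17% of all loci), and 1 without recombined 3 and 4. Etv5, a factor downstream of fibroblast growth factor signals, was up by 1.54 ± 0.262 and the repressor Erf by 1.02 ± 0.22. Nuclear receptors had 3 rises and 1 fall among 37 (10.8% called, beside 6.55% of all loci), with the mineralocorticoid receptor Nr3c2 up by 1.15 ± 0.244. There was 1 rise without recombined 3 or 4 or wild type 2 or 4, and there were 3 falls without recombined 2. With recombined 3 and 4 both left out, 0 nuclear receptors rose and 1 fell. No locus of the 11 Sox factors passed (3 higher and none lower at an unadjusted p under 0.05, and 1 higher with DESeq2).

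Of 28 immediate early genes, which cells switch on within minutes of a stimulus, 5 rose, 1 fell and 22 did not pass, so 21.4% were called and 17.9% rose, beside 6.55% and 4.17% of all loci. The count was not steady: 2 rose without recombined 3 or without wild type 4, and none passed without both recombined 3 and 4. Egr2 rose from 169–224 CPM to 269–741 CPM and Ctgf, a matricellular protein (counted with AK014660), from 22.1–43.2 CPM to 65.7–141 CPM. Fosb had 2834, 5220, 5056 and 7331 CPM in wild type and 4123, 3392, 3373 and 5843 CPM in recombined libraries. The ranges overlapped, and the difference (log2 -0.29 ± 0.267) did not pass. Egr1 (0.10 ± 0.24) and Fos (-0.31 ± 0.227, chosen after its values were seen) did not pass either.

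Most of the metabolic and stress lists below were called at shares under the 6.55% of all loci. Of 23 glycolysis loci 1 rose (4.35%), a call lost without recombined 3 or wild type 2 or 4. Of 21 fatty acid oxidation loci 1 rose (4.76%, and 2 loci without recombined 2). Both shares were near the 4.17% of rises over all loci. Without recombined 1 the glycolysis list had 2 rises and 1 fall, and the cholesterol synthesis and heat shock lists 1 rise each. No locus passed among 23 of the tricarboxylic acid cycle, 23 of cholesterol synthesis, 22 of fatty acid and triglyceride synthesis or 16 of the heat shock response. At an unadjusted p under 0.05 these lists had 0, 3, 2 and 1 loci higher and 2, 0, 1 and 0 lower, and with DESeq2 cholesterol synthesis and fatty acid synthesis had 1 rise each and the other lists none. Pdk4, the kinase that shuts pyruvate out of the cycle, rose from 86.4–156 CPM to 246–627 CPM. Of 28 glutathione and antioxidant genes 3 fell, among them peroxiredoxin 6 (Prdx6), from 89.7–129 CPM to 50.4–59.5 CPM, and 1 fell without recombined 2 or wild type 3 or 4. The share of falls in that list was 10.7%, beside 2.38% of all loci, and no member rose. Of 46 cell cycle and DNA replication genes 1 rose (2.17%, beside 4.17% of all loci) and none fell. None rose without recombined 4 or wild type 2 or 4. The median log2 difference of that list was -0.19, and wild type 1 was 0.96 above the wild type mean while the other 7 libraries lay between -0.42 and 0.36.

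Some transcripts were found in a single group. Of the loci that rose, 11 had at most 3 counts in every wild type library and 4 of these had none. Gastrin-releasing peptide (Grp; chromosome 18, 66033147), a signalling peptide chosen after its values were seen, had no count in wild type and 1.52, 10.01, 52 and 11.3 CPM in recombined libraries, at least 164-fold higher against the floor (66.8-fold without recombined 3). Recombined 3 held far more than the other 3, and without recombined 3 and 4 Grp did not pass (adjusted p = 0.08). Of the loci that fell, 39 had at most 3 counts in every recombined library and 17 had none. Inmt, a methyltransferase of indoles (chromosome 6, 55120620), had 5.76, 3.75, 5.85 and 8.06 CPM in wild type and none in recombined libraries, at least 48.3-fold lower. Mmp27, a matrix metalloproteinase, had 1.36–1.58 CPM in wild type and none in recombined libraries, at least 12-fold lower. Mfap4, a protein of elastic fibres, had 4.67–16.2 CPM in wild type and 2, 3, 0 and 0 counts in recombined 1 to 4.

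Markers of cell types that a sorted epithelial sample can hold were read beside these families. Besides the basal, hormone-sensing and fibroblast lists above, none of 16 luminal progenitor loci passed with edgeR or DESeq2 (2 higher and none lower at an unadjusted p under 0.05), and the summed level of that list was 3026 to 4914 CPM in wild type and 2327 to 7730 CPM in recombined libraries, which overlap. None of 15 endothelial loci passed (none higher and 2 lower at an unadjusted p under 0.05 and with DESeq2, median log2 -0.86), with sums of 145.3 to 222.3 CPM in wild type and 93.14 to 165.2 CPM in recombined libraries. Of 13 macrophage and dendritic cell loci 4 fell (30.8%, beside 2.38% of all loci), and none without recombined 3 and 4. C1qa was at 0 in the recombined libraries. The sums were 41.18 to 124.5 CPM in wild type and 18.01 to 28.41 CPM in recombined libraries. Of 22 complement and coagulation genes 4 fell (18.2%, beside 2.38% of all loci) and none rose. Without recombined 3 and 4 there were 2 falls, and without the libraries with salivary transcripts 1 fall. DESeq2 gave 1 rise and 7 falls. Of 9 pericyte loci 2 rose and 1 fell (33.3% called, beside 6.55% of all loci), with a median log2 of -0.085. Of 7 epidermis and hair follicle loci 1 rose (14.3%, beside 4.17% of all loci), with a median log2 of 0.75. Medians of the epidermis and hair follicle list were 0.10, 0.61, 0.91 and 1.05 in recombined 1 to 4. The part of these lists in the rises described above was not tested. The medians by library place recombined 1 apart from recombined 2 to 4 in several epithelial lists: it was lowest in basal, contractile and desmosome genes and highest in luminal progenitor markers (1.10, against -0.60 to 0.56 in the other 3).

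**Figure D5:**
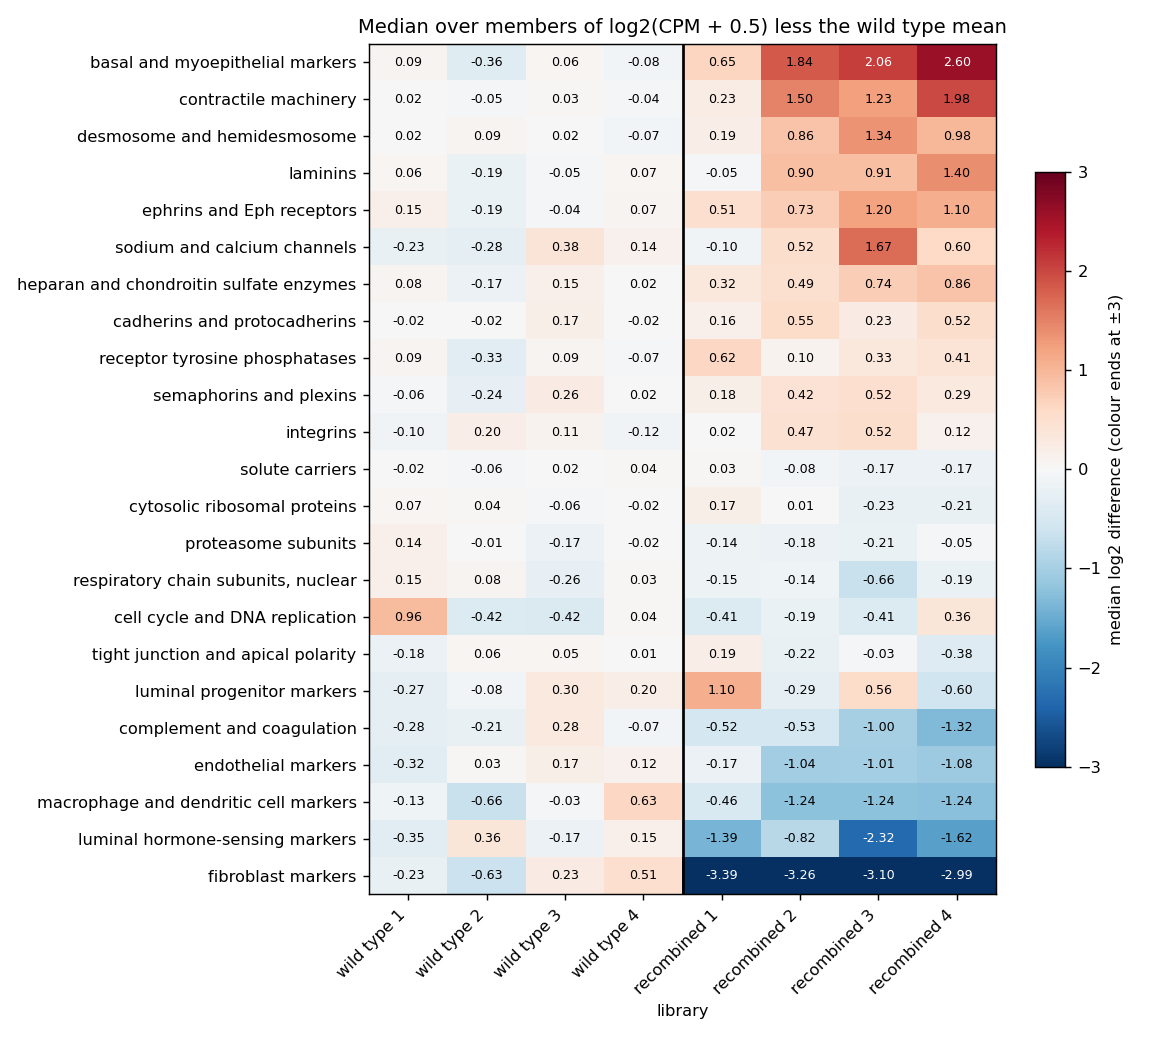
Each cell gives, for 1 list and 1 library, the median over members of log2(CPM + 0.5) less the mean of the wild type libraries. The basal and myoepithelial row runs from 0.65 in recombined 1 to 2.60 in recombined 4. The fibroblast row lies between -3.39 and -2.99 in the 4 recombined libraries. The cytosolic ribosomal and proteasome rows lie between -0.23 and 0.18. The respiratory chain row lies between -0.66 and -0.14 in recombined and between -0.26 and 0.15 in wild type libraries.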

How the data were processed

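The submitters' processing notes name STAR, HTSeq 0.3.1 and mouse build mm9, with no role; options, strand setting and annotation are not given in the sources used here, so overlapping or antisense genes cannot be told apart. The deposited table holds raw counts per entry, per the file headers and whole values, with no value pooled over libraries. Entries naming several loci were left out. Of the loci tested, 2823 join several symbols in 1 name ("counted with").

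Counts were scaled by TMM and tested two-sided with the quasi-likelihood test of edgeR 4.0.16 (R 4.3.3; robust, default filter on low counts, all 12 libraries in 1 fit), with Benjamini-Hochberg adjustment over 14039 loci and a threshold of 0.05. All adjusted p-values are from this test unless a tool is named. The median SE of a log2 fold change was 0.37. Log2 medians per library use a pseudocount of 0.5 CPM. Families (88) were matched by symbol, with some non-members removed after the data were seen, and 29 function lists and 15 cell type lists were written from textbook knowledge (961 of 975 genes found). The members and lists were chosen with earlier results of these data known, and lists are described by counts beside the share over all loci, with no set test.

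Genes named are Smo and Ptch1, the 10 per direction with the smallest p and the 10 with the largest CPM difference among loci of 1 symbol, and of each family up to 6 called members per direction by p and up to 4 uncalled members by CPM; a selection of these is printed, and others are marked. A few members are not reported here. Alternatives were other scalings, DESeq2 1.42.0, limma-voom (limma 3.58.1) with and without library weights, other filters, only the 2 groups, a replicate block, the series in library numbers as covariate or alone, recombined 3 and 4 left out, and each library left out.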

Additional observations from a re-analysis of the deposited data

Results flagged for a closer look

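In groups of 4 libraries, a library was singled out where its gap to the nearest other library took most of the range of the group (the 95% limit of Dixon's test), by which chance flags about 1 in 20 groups. Of 293 groups among the loci named, 18 met it, close to that rate. In recombined cells, library 3 stood high in Slc38a2 (2438 CPM), Col3a1 (30.9 CPM), Itgb8 (71.4 CPM) and Dcc (10.1 CPM). Library 1 stood low in Cdh3 (32.3 CPM) and Lama5 (42.9 CPM) and high in Tbx15 (0.567 CPM). Library 2 stood high in Kcnn3 (0.77 CPM) and library 4 low in Slc25a3 (210 CPM). In wild type cells, library 1 stood high in Tpm2 (146 CPM), Sema6d (58.5 CPM) and Nalcn (8.28 CPM). Library 2 stood low in Col27a1 (2.28 CPM), Adamts1 (215 CPM), Chst11 (1.35 CPM) and Erf (15.98 CPM) and high in Kcnt2 (6.15 CPM), and library 4 stood high in Col6a2 (35.8 CPM). The groups overlapped in Lama5 and Slc25a3, which did not pass the test, and not in the other 16 of these loci.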

How the results depend on the processing

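Main calls were 586 rises and 334 falls (920 in all), and none of the 133 named loci that passed changed sign under the alternatives run, whereas 8 of the 17 named loci that did not pass did: the Ppp1r14c entry on chromosome 2, Tpm4, Cdh1, Lama5, Lamb2, Slc25a3, Fth1 and Egr1. The Wald test of DESeq2 called 1614 loci (948 rose, 666 fell), among them all 920. Limma-voom with library weights called 179 falls. With only the 2 groups in the fit 594 loci passed, 175 of them falls. Without recombined 3 and 4 there were 248 calls (128 rises, 120 falls), 233 of them among the 920, and within library number series 23 there were 75 (27 and 48), 73 of them among the 920; both fits have fewer libraries. With each library left out in turn, calls lay between 502 (without wild type 4) and 1217 (without recombined 1), rises between 319 and 762 and falls between 183 and 455. Other scalings, limma-voom without weights, other filters, the series as covariate and entries of several loci kept in moved no total by over 1.5 times. Alternatives chosen after seeing the data were the 5 libraries with salivary transcripts left out (580 rises, 417 falls) and the level of these transcripts as a covariate (680 and 466).

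The labels do not say that the replicate numbers pair recombined and wild type libraries. Across loci, deviations from the group means had r values of -0.0314, 0.185, 0.109 and 0.125 for numbers 1 to 4 and between -0.147 and 0.169 for unequal numbers, so the numbers were not taken as pairs, since number 1 did not deviate together. The highest r was that with the library of the same number for 2 of 4 recombined and 3 of 4 wild type libraries. Library 2 of both groups had the salivary transcripts in quantity and the highest heat shock medians (1.08 in wild type and 1.34 in recombined, with the other 6 below 0). With the replicate number as a block, 704 loci rose and 490 fell, and 852 of the 920 were also called.

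With 4 libraries per group and a median SE of 0.37 on the log2 scale, small changes may not be detectable, and a locus that did not pass is not shown to be unchanged.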
